A study of Homo sapiens with 9 samples.

Results

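Integrins and laminins are the receptor and ligand families by which epithelial cells hold on to the basement membrane. The 34 genes described here were chosen by name from a fixed list, 24 integrin subunits and 10 laminin chains, out of 47753 gene names on the array. An integrin is a pair of 1 α and 1 β subunit in the plasma membrane that binds matrix outside the cell and talin, kindlin or plectin inside it. A laminin is a trimer of an α, a β and a γ chain that is laid down in the basement membrane. In stratified epithelium the laminin receptor made of ITGA6 and ITGB4 anchors cells in hemidesmosomes, LAMA3 and LAMB3 are chains of its ligand, and the receptors made with ITGAV and with ITGA5 bind fibronectin and other RGD ligands and are linked with spreading and migration of carcinoma cells.

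The cells were OEC-M1, a head and neck squamous cell carcinoma (HNSCC) line. All 9 samples were kept at 1% O2 for 18 h, so the controls were hypoxic too, and all received siRNA for 72 h. Non-targeting siRNA (si-Control), siRNA against GATA3 and siRNA against HIF1A, the gene of HIF-1α, were each given to 3 samples, and RNA of each sample was read on 1 one-colour Agilent array. The study used the arrays to ask which genes depend on GATA3 and on HIF-1α in hypoxic cells, with 1 siRNA sequence per target, so effects of an siRNA and of losing its target were measured together. The labels do not say that replicates were separate cultures, so P values measure the spread between these samples. In bulk RNA, fewer cells of a kind and less RNA per cell cannot be told apart.

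On the quantile normalized log2 scale used throughout, the GATA3 probe was lower by 1.27 in GATA3 knockdown and the HIF1A probe by 2.32 in HIF-1α knockdown than in si-Control, with no overlap between arrays. The median spot intensity before normalization was between 992.5 and 3560, and it was lowest on si-Control replicate 3 and highest on HIF-1α knockdown replicate 1. Each array had between 73.3% and 88.0% of probes well above background. Of 7 squamous markers, KRT14, KRT17, TP63, SFN and CDH1 were well above background on all 9 arrays, KRT6A on 8 and KRT5 on 0. Probes for markers of other cells were also above background on all 9 arrays in a cultured line, with 3 of 3 endothelial markers, 3 of 4 leukocyte markers and 2 of 5 fibroblast markers, while LUM was above it on 0.

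Of the 34 genes, 30 were well above background on all 9 arrays. ITGA8 was so on no array, LAMA1 on 8 arrays, ITGB8 on 4 and ITGB2 on the 3 si-Control arrays only. This reading depends on the array as well as on the signal. ITGB2 was well above background at 8.10 on si-Control replicate 1 but not at 8.34 on GATA3 knockdown replicate 3. Of all probes, 85.8% to 88.0% were so on the si-Control arrays, 73.3% to 83.0% in GATA3 knockdown and 80.0% to 87.0% in HIF-1α knockdown. No member was saturated. A gene was counted at an unadjusted two-sided P of 0.05 from limma, and the Benjamini-Hochberg adjusted P over all genes was computed beside it. In GATA3 knockdown against si-Control, 2 of 34 members were counted, ITGB5 higher and ITGB8 lower, which is 5.88% of the members where 2.97% of all 47720 genes tested were counted, 1.59% higher and 1.38% lower. In HIF-1α knockdown, 4 of 34 were counted, ITGB4 and ITGB5 higher and ITGA9 and ITGB2 lower, 11.8% of the members where 5.23% of all genes were counted, 1.95% higher and 3.28% lower. Between the knockdowns, 7 of 34 were counted, with ITGA4, ITGA9, ITGAV and LAMA2 higher and ITGAX, ITGB4 and LAMC3 lower in GATA3 knockdown, 20.6% of the members where 12% of all genes were counted, 6.93% higher and 5.05% lower. At an adjusted P of 0.05, 0 members were counted in the 3 comparisons. Their smallest adjusted P was 1.00 in GATA3 knockdown, 0.808 in HIF-1α knockdown and 0.181 between the knockdowns, and 0, 0 and 2 of all genes were counted at that threshold, or 0%, 0% and 0.00422%. Of the 33 members with a value on every array, 1, 5 and 9 had groups that did not overlap, where 6.03%, 13.3% and 22.8% of all genes did so. Leaving out 1 array moved these counts by more than 1.5 times. The GATA3 knockdown count was 6 without si-Control replicate 3, where 12.6% of all genes were then counted. It was 1 without si-Control replicate 2, GATA3 knockdown replicate 1 or HIF-1α knockdown replicate 1 or 2, and 0 without HIF-1α knockdown replicate 3. Of all genes, those fits counted 1.99%, 3.02%, 2.6%, 2.53% and 2.31%. The HIF-1α knockdown count was 2 without si-Control replicate 2 or HIF-1α knockdown replicate 2, where 5.67% and 5% of all genes were counted. The count between knockdowns was 2 without GATA3 knockdown replicate 1 or HIF-1α knockdown replicate 3, 4 without GATA3 knockdown replicate 3 and 3 without HIF-1α knockdown replicate 1. In that order, those fits counted 6.95%, 6.31%, 5.69% and 6.45% of all genes. The median log2 difference of the members was -0.13, -0.0017 and -0.05 in these comparisons where the median of all genes was -0.018, -0.0104 and 0.00129. Over the other settings and with each array left out, the members' median ran from -0.16 to 0.032, from -0.18 to 0.17 and from -0.25 to 0.11, so its sign depended on the setting in all 3 comparisons.

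**Figure D1:**
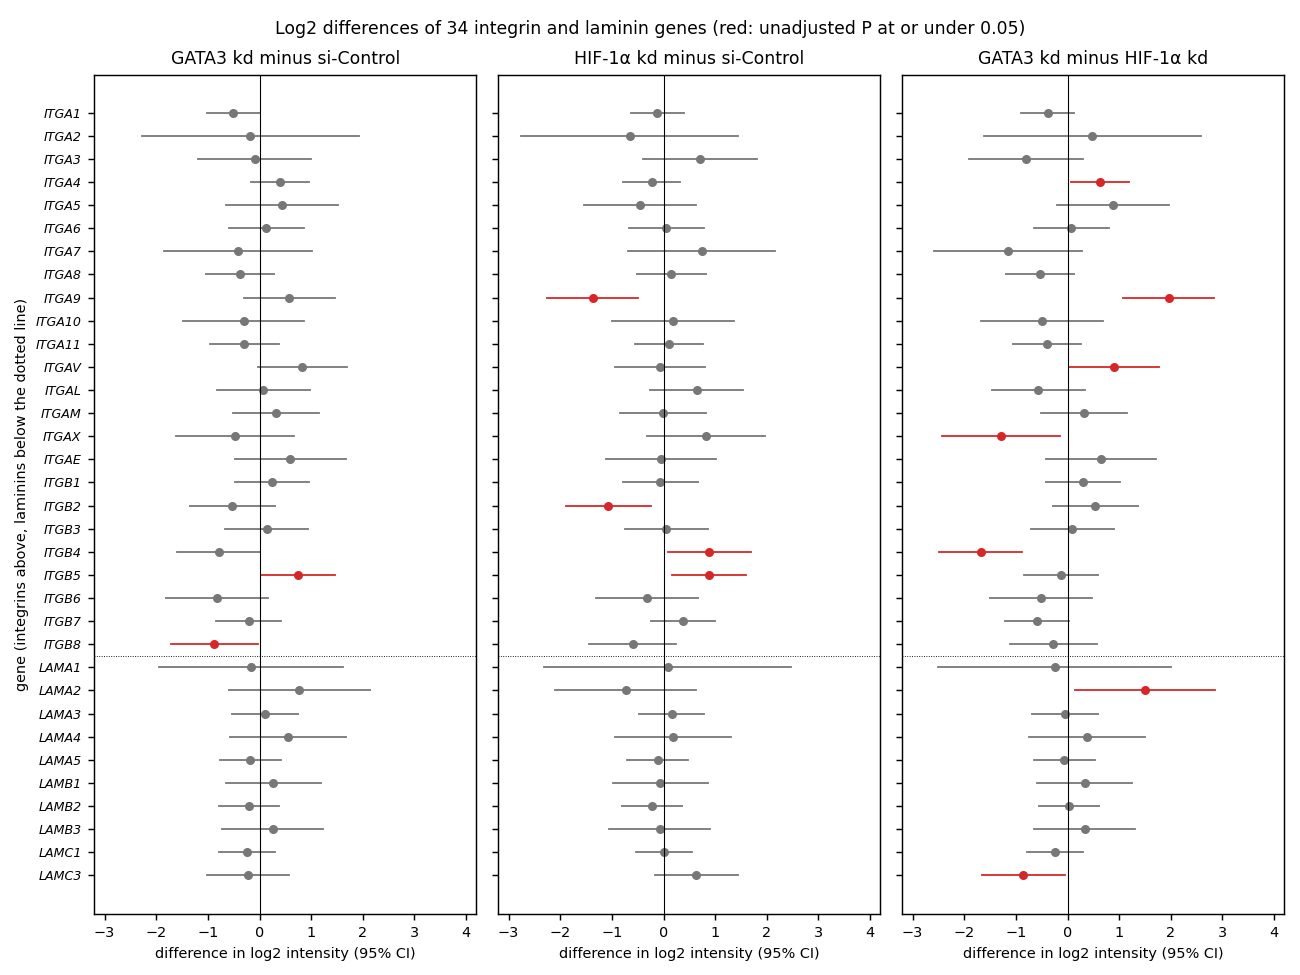
Difference in log2 intensity of each of the 34 genes (points) with its 95% confidence interval from limma (lines), for GATA3 knockdown against si-Control, HIF-1α knockdown against si-Control and GATA3 against HIF-1α knockdown. Red marks the 2, 4 and 7 genes at an unadjusted P of 0.05, and the widest intervals of a gene measured on all arrays are those of ITGA2.

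No laminin chain was counted in either knockdown against si-Control. Of the 10 chains, 5 were higher and 5 lower than si-Control in each knockdown, and their differences ran from -0.24 to 0.77 in GATA3 knockdown and from -0.73 to 0.64 in HIF-1α knockdown. Of the 24 integrin subunits, 11 were higher and 13 lower in GATA3 knockdown and 12 were higher and 12 lower in HIF-1α knockdown.

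The members varied most within si-Control. The difference between the highest and the lowest si-Control array had a median of 1.19 over the members, against 0.83 over all genes, while over the members it was 0.87 for the GATA3 knockdown arrays and 0.58 for the HIF-1α knockdown arrays. In 31 of 34 members it was larger than both knockdown differences, and the exceptions were ITGA1, ITGA8 and ITGA9. Si-Control replicate 3, the array with the lowest spot intensity, held the highest si-Control value of 20 and the lowest of 8 of the 33 members read on all 3 arrays, and over all genes it held the highest of 43.7% and the lowest of 39.9%. The part of array brightness in these values was not tested directly, and a fit that took brightness as a further term was chosen once the data had been seen. It counted 10, 10 and 8 members in the 3 comparisons, where 10.1%, 7.83% and 9.82% of all genes were counted. In GATA3 knockdown against si-Control it added ITGA1, ITGAE, ITGAV, ITGB2, ITGB4, ITGB6, LAMA1 and LAMA4, each in the direction that its probe had before. LAMA1 was read on only 6 arrays, and other LAMA4 probes differed in sign, as given below. In HIF-1α knockdown it added ITGA3 at 1.38 and LAMA4 at 0.87, and 4 members on the other side of si-Control than before, which were ITGA10 at -0.58, ITGAE at 0.63, ITGAV at 0.45 and, on the 6 arrays that read it, LAMA1 at -1.06. Between the knockdowns it added ITGA3 at -1.50, ITGA8 at -0.78, ITGB5 at -0.53, ITGB6 at -1.02 and LAMC1 at -0.46, while ITGA4, ITGAV, ITGAX and LAMC3 were no longer counted.

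**Figure D2:**
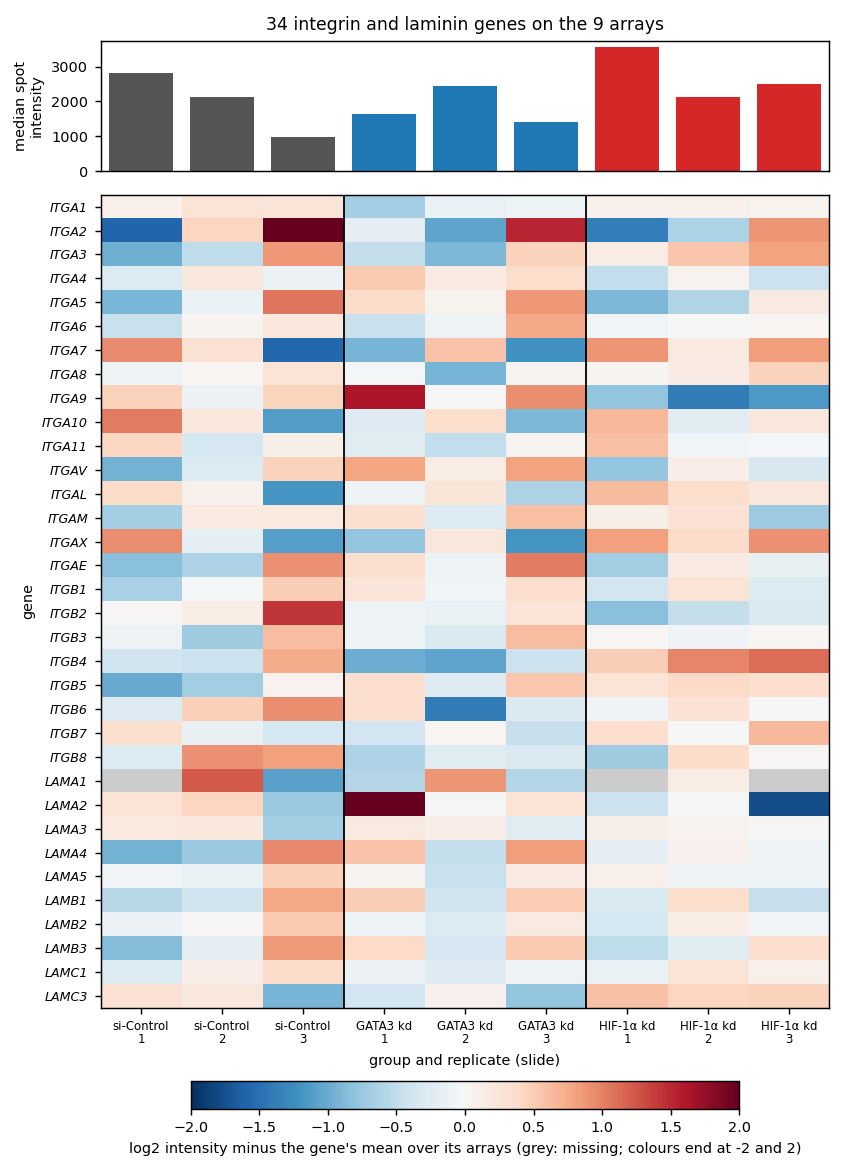
Median spot intensity of the 9 arrays before normalization (bars, top) and the log2 intensity of each of the 34 genes on each array less the mean of that gene (colours, below; grey is a missing value). Si-Control replicate 3 has the shortest bar, at 992.5, and is high for ITGA2, ITGA5, ITGB2 and LAMB3 and low for ITGA7, ITGA10, ITGAL, ITGAX and LAMC3.

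ITGA9 and ITGB4 had the smallest P values of the members. ITGA9, an α subunit that pairs with ITGB1 and binds tenascin-C and other matrix ligands, was lower in HIF-1α knockdown. Its log2 intensity was 14.65, 14.06 and 14.63 on the si-Control arrays, 15.79, 14.17 and 15.11 in GATA3 knockdown and 13.39, 12.78 and 13.04 in HIF-1α knockdown. All HIF-1α knockdown arrays lay below all other arrays, and the GATA3 knockdown and si-Control arrays overlapped. HIF-1α knockdown was lower than si-Control by a log2 difference of -1.38 ± 0.39 (SE, n = 3 against 3), or 2.59-fold (95% CI -2.25 to -0.50, limma, adjusted P = 0.808). On the 3 slides, each of which held 1 array of every group, the difference was -1.26, -1.28 and -1.59. GATA3 knockdown was above HIF-1α knockdown by 1.96 ± 0.39, or 3.88-fold (95% CI 1.08 to 2.83, limma, adjusted P = 0.181, and 0.0455 with the slide as a block). Both ITGA9 differences stayed past the unadjusted threshold in all 9 fits that left out 1 array and under all 11 other settings. Against si-Control, the GATA3 knockdown difference of 0.58 ± 0.39 (95% CI -0.30 to 1.46) was not past the threshold.

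ITGB4, the β subunit of the hemidesmosome that pairs only with ITGA6, lay on opposite sides of si-Control in the knockdowns. It was 13.61, 13.58 and 14.76 in si-Control, 13.02, 12.96 and 13.58 in GATA3 knockdown and 14.50, 14.99 and 15.13 in HIF-1α knockdown. The knockdown groups did not overlap, and si-Control replicate 3 lay within the HIF-1α knockdown range and well above the other si-Control arrays. HIF-1α knockdown was higher than si-Control by 0.89 ± 0.36, or 1.85-fold (95% CI 0.09 to 1.69, limma, adjusted P = 0.823), and GATA3 knockdown had a difference of -0.79 ± 0.36 (95% CI -1.59 to 0.01), which did not pass. On the slides, the differences from si-Control were 0.89, 1.41 and 0.37 in HIF-1α knockdown and -0.59, -0.61 and -1.17 in GATA3 knockdown. With the slide as a block, the GATA3 knockdown difference passed the unadjusted threshold. The direct difference of GATA3 from HIF-1α knockdown was -1.68 ± 0.36, or 3.21-fold lower (95% CI -2.48 to -0.88, limma, adjusted P = 0.199). The adjusted P from limma was 0.0492 with the slide as a block and 0.0343 with array brightness, and the difference passed in all 9 fits without 1 array and under all 11 other settings. The increase in HIF-1α knockdown passed in 5 of the 9 fits without 1 array and lost the threshold without si-Control replicate 1, at 0.70, or 2, at 0.69, and likewise when HIF-1α knockdown replicate 2, at 0.83, or 3, at 0.76, was left out.

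**Figure D3:**
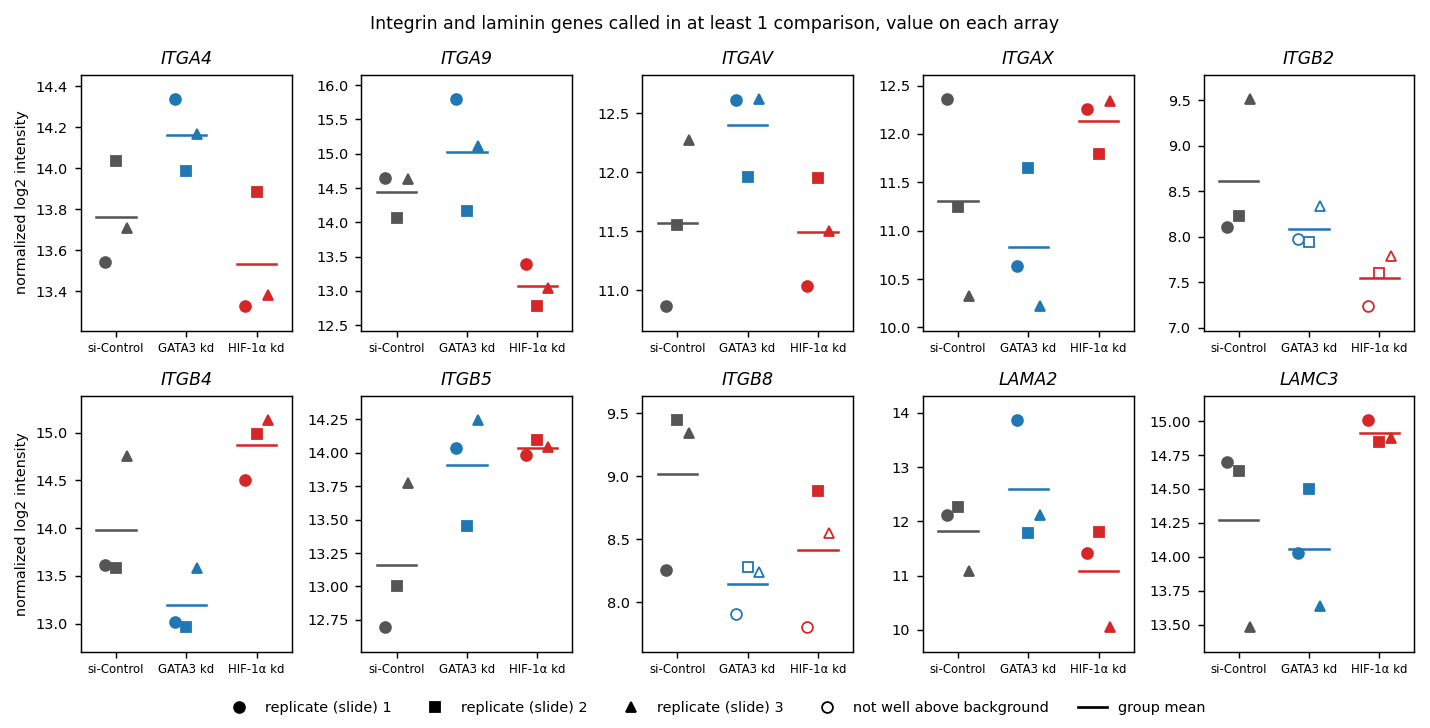
Log2 intensity of the 10 genes counted in at least 1 comparison on each of the 9 arrays, by group, with symbols for the slide, numbered as the replicate, and the group mean as a line. Open symbols are values not well above background. In ITGA9 and ITGB4 the knockdown groups stand fully apart, and in ITGB5 si-Control replicate 3 lies among the GATA3 knockdown arrays.

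The partner of ITGB4 was not counted in any comparison. ITGA6, the α subunit of the laminin receptor of hemidesmosomes, was 11.23, 11.72 and 11.87 in si-Control, 11.21, 11.56 and 12.42 in GATA3 knockdown and 11.61, 11.67 and 11.70 in HIF-1α knockdown. The 3 groups overlapped, and the differences from si-Control were 0.13 (95% CI -0.60 to 0.85) and 0.06 (-0.67 to 0.78). A second ITGA6 probe gave 0.82 ± 0.57 and 0.65 ± 0.57, also short of the threshold. ITGA3, which pairs with ITGB1 to bind laminin, was 13.65, 14.12 and 15.49 in si-Control, 14.15, 13.73 and 15.09 in GATA3 knockdown and 14.77, 15.19 and 15.43 in HIF-1α knockdown. The si-Control arrays spanned all of these values. The HIF-1α knockdown difference of 0.71 ± 0.49 (95% CI -0.39 to 1.80) did not pass, but it passed at the unadjusted threshold with the slide as a block, where the difference between knockdowns of -0.80 passed as well. ITGB1, the common β subunit of most matrix receptors, was 16.18, 16.81 and 17.33 in si-Control, 17.09, 16.79 and 17.18 in GATA3 knockdown and 16.47, 17.11 and 16.56 in HIF-1α knockdown. Its differences from si-Control were 0.25 (95% CI -0.47 to 0.97) and -0.06 (-0.78 to 0.66).

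Among the subunits of RGD receptors, ITGB5 was the member counted in both knockdowns. It pairs with ITGAV to bind vitronectin. ITGB5 was 12.70, 13.01 and 13.78 in si-Control, 14.04, 13.45 and 14.24 in GATA3 knockdown and 13.98, 14.09 and 14.04 in HIF-1α knockdown. Every HIF-1α knockdown array was above every si-Control array, and si-Control replicate 3 was above GATA3 knockdown replicate 2. The difference was 0.75 ± 0.32 in GATA3 knockdown, or 1.68-fold (95% CI 0.03 to 1.46, limma, adjusted P = 1.00), and 0.88 ± 0.32 in HIF-1α knockdown, or 1.84-fold (95% CI 0.16 to 1.60, limma, adjusted P = 0.823). Both comparisons used the same si-Control arrays. On the slides, the GATA3 knockdown difference was 1.34, 0.44 and 0.47 and the HIF-1α knockdown difference 1.29, 1.09 and 0.27. The GATA3 knockdown result passed in only 2 of the 9 fits without 1 array, those without si-Control replicate 3 and GATA3 knockdown replicate 2, with values of 0.51 to 1.05 over the 9 fits. The HIF-1α knockdown result passed in 6 of 9, with values of 0.64 to 1.18, and lost the threshold without si-Control replicate 1 or 2 or HIF-1α knockdown replicate 2.

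ITGAV, the α subunit shared by ITGB3, ITGB5, ITGB6 and ITGB8, was 10.87, 11.55 and 12.28 in si-Control, 12.61, 11.96 and 12.62 in GATA3 knockdown and 11.04, 11.95 and 11.50 in HIF-1α knockdown. The knockdown groups stood apart by 0.01 between their nearest arrays, and both shared values with si-Control. GATA3 knockdown was above HIF-1α knockdown by 0.90 ± 0.39, or 1.87-fold (95% CI 0.03 to 1.77, limma, adjusted P = 0.411), with slide differences of 1.57, 0.01 and 1.12. Against si-Control, the GATA3 knockdown difference was 0.83 ± 0.39 (95% CI -0.04 to 1.70), and it passed with the slide as a block. With array brightness as a covariate, a setting added after the data were seen, the difference between knockdowns was 0.36 and no longer passed. Without 1 array it passed in 4 of 9 fits and did not without si-Control replicate 2 or replicate 1 or 3 of either knockdown.

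ITGB8, whose receptor with ITGAV activates latent TGF-β, was 8.26, 9.44 and 9.34 in si-Control and 7.91, 8.28 and 8.24 in GATA3 knockdown, where no array read it well above background. In HIF-1α knockdown it was 7.81, 8.89 and 8.55, with only the second value above background. The HIF-1α knockdown difference of -0.60 ± 0.38 (95% CI -1.44 to 0.24), with slide differences of -0.45, -0.56 and -0.79, was not counted, but it passed the unadjusted threshold with the slide as a block and without si-Control replicate 1, at -0.97. The si-Control and GATA3 knockdown arrays overlapped by 1 value. In GATA3 knockdown the measured ITGB8 difference from si-Control was -0.87 ± 0.38, or 1.83-fold (95% CI -1.72 to -0.03, limma, adjusted P = 1.00), past the unadjusted threshold. The probe's own signal set the bound, so the bound equals this measured fold and leaves out the spread between arrays. Slide differences were -0.35, -1.16 and -1.10, and the 9 fits without 1 array gave -1.24 to -0.66. The result passed in 3 of the 9 fits without 1 array and failed without si-Control replicate 2 or 3, without any 1 GATA3 knockdown array, and without HIF-1α knockdown replicate 3. ITGB6, the epithelial β subunit that also activates TGF-β, was 12.95, 13.68 and 14.13 in si-Control, 13.55, 11.81 and 12.92 in GATA3 knockdown and 13.13, 13.50 and 13.20 in HIF-1α knockdown. Its differences from si-Control, -0.82 ± 0.44 and -0.31 ± 0.44, had 95% CIs of -1.81 to 0.16 and -1.30 to 0.68. ITGA5, the α subunit of the main fibronectin receptor, was 15.06, 15.84 and 17.04 in si-Control, 16.35, 16.05 and 16.84 in GATA3 knockdown and 15.07, 15.38 and 16.15 in HIF-1α knockdown. Its si-Control range held every value of both knockdowns, and its difference between knockdowns was 0.88 ± 0.48 (95% CI -0.20 to 1.96). That difference passed with the slide as a block and was 0.23 with array brightness as a covariate.

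None of the 4 collagen-binding α subunits was counted in any comparison. ITGA2, the α subunit of the collagen receptor of epithelial cells, was 9.77, 11.80 and 13.36 in si-Control, 11.19, 10.31 and 12.89 in GATA3 knockdown and 9.98, 10.73 and 12.25 in HIF-1α knockdown. In each group its lowest and highest arrays differed by more than any group difference, by 3.59 in si-Control. Its differences from si-Control were -0.18 (95% CI -2.28 to 1.92) and -0.66 (-2.76 to 1.44), so a change of several fold either way lies within the interval. ITGA1, ITGA10 and ITGA11, the other collagen-binding α subunits, had differences from si-Control of -0.51, -0.31 and -0.29 in GATA3 knockdown and -0.12, 0.18 and 0.10 in HIF-1α knockdown. ITGA1 came nearest, in GATA3 knockdown (95% CI -1.02 to 0.01), where its 3 arrays lay below the 3 si-Control arrays. Its HIF-1α knockdown arrays, at 10.013, 10.020 and 9.990, also lay below the lowest si-Control array, at 10.022.

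Subunits best known from leukocytes were read on these arrays as well. ITGB2, the shared β subunit of leukocyte integrins, was 8.10, 8.23 and 9.51 in si-Control, 7.97, 7.94 and 8.34 in GATA3 knockdown and 7.24, 7.61 and 7.79 in HIF-1α knockdown. No knockdown array read it well above background, and all HIF-1α knockdown arrays lay below all si-Control arrays. HIF-1α knockdown had at least 2.01-fold less ITGB2 signal over all arrays, past the unadjusted threshold (limma, adjusted P = 0.823), with slide differences of -0.86, -0.62 and -1.73. The measured difference of -1.07 ± 0.37 (95% CI -1.89 to -0.25) was -0.65 without si-Control replicate 3. The bound of 2.01-fold therefore does not hold without that array. It passed in 8 of the 9 fits without 1 array, the exception being HIF-1α knockdown replicate 1. Over the 11 other settings its difference ran from -2.29 to -0.61. ITGA4, which pairs with ITGB1 or ITGB7 to bind fibronectin and VCAM1, was 13.54, 14.03 and 13.71 in si-Control, 14.34, 13.99 and 14.16 in GATA3 knockdown and 13.33, 13.88 and 13.38 in HIF-1α knockdown. GATA3 knockdown was above HIF-1α knockdown by 0.63 ± 0.25, or 1.55-fold, without overlap (95% CI 0.07 to 1.19, limma, adjusted P = 0.396). A second ITGA4 probe, also above background on all 9 arrays, gave 0.05 ± 0.31 for the same comparison, and another, above background on 0 arrays, gave 0.91 ± 0.33. With array brightness as a covariate the difference was 0.53 and no longer passed. It passed in 5 of 9 fits without 1 array and not without replicate 1 or 3 of either knockdown.

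ITGAX, the α subunit that pairs with ITGB2 in myeloid and dendritic cells, was 12.36, 11.25 and 10.33 in si-Control, 10.63, 11.65 and 10.22 in GATA3 knockdown and 12.25, 11.80 and 12.35 in HIF-1α knockdown. The knockdowns did not overlap, and si-Control covered nearly the whole range of both. GATA3 knockdown was below HIF-1α knockdown by a log2 difference of -1.29 ± 0.51, or 2.45-fold (95% CI -2.44 to -0.15, limma, adjusted P = 0.396), with slide differences of -1.62, -0.14 and -2.12. With array brightness as a covariate it was -0.58 and no longer passed, and without 1 array it passed in 5 of 9 fits and not without replicate 1 or 3 of either knockdown. The mean log2 level of the 3 leukocyte markers read on every array, PTPRC, CD3E and CD14, ranged from 12.04 to 12.73 in si-Control, from 11.54 to 12.35 in GATA3 knockdown and from 12.14 to 12.63 in HIF-1α knockdown. The 3 endothelial markers ranged from 10.65 to 11.55, from 10.65 to 11.30 and from 11.41 to 11.66 in the same order. VWF alone was 13.75, 13.50 and 11.38 in si-Control, 12.58, 13.56 and 12.02 in GATA3 knockdown and 13.91, 13.48 and 13.91 in HIF-1α knockdown, high and low on the same arrays as ITGAX for the most part. The other endothelial markers did not share 1 pattern. CDH5 was 11.34, 10.66 and 10.21 in si-Control, falling from replicate 1 to 3 as ITGAX did. PECAM1 rose there, at 9.55, 9.99 and 10.35, and was highest on GATA3 knockdown replicate 3, at 10.63, where ITGAX was lowest. Of the leukocyte markers, PTPRC and CD3E were also lowest on si-Control replicate 3, at 16.56, 16.61 and 15.22 and at 11.83, 11.29 and 10.91 in si-Control. CD14 was not, at 9.81, 9.65 and 9.98. Median spot intensity was 2807.5, 2126.5 and 992.5 in si-Control, 1627, 2452 and 1410 in GATA3 knockdown and 3560, 2132 and 2502.5 in HIF-1α knockdown. The part of signal from such markers in the ITGAX result was not tested, and that of array brightness was not tested directly. ITGAL, ITGAM, ITGAE and ITGB7, the other leukocyte subunits listed, had differences between knockdowns of -0.56, 0.32, 0.65 and -0.59, and none was counted in any comparison.

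No chain of the epithelial laminins was counted in any comparison. LAMA3, the α chain of the hemidesmosome ligand, was 15.08, 15.10 and 14.21 in si-Control, 15.07, 15.02 and 14.64 in GATA3 knockdown and 15.00, 14.96 and 14.90 in HIF-1α knockdown. Its differences from si-Control were 0.11 (95% CI -0.52 to 0.75) and 0.16 (-0.48 to 0.79), on a probe whose RefSeq accession is non-coding, and a second LAMA3 probe, on a coding transcript, gave 0.18 ± 0.82 and -0.34 ± 0.82. LAMB3, the β chain of that ligand, was 15.66, 16.35 and 17.38 in si-Control, 16.92, 16.19 and 17.05 in GATA3 knockdown and 16.02, 16.29 and 16.86 in HIF-1α knockdown. The si-Control arrays spanned all the others, and the differences were 0.26 (95% CI -0.72 to 1.23) and -0.07 (-1.05 to 0.90). LAMC1, the γ chain of most other laminins, was 14.62, 15.03 and 15.26 in si-Control, 14.77, 14.63 and 14.80 in GATA3 knockdown and 14.77, 15.16 and 14.99 in HIF-1α knockdown. Its differences were -0.24 (95% CI -0.78 to 0.30) and 0.0024 (-0.54 to 0.54), the narrowest intervals among the laminins. LAMA4, LAMA5, LAMB1 and LAMB2 had differences from si-Control of 0.55, -0.18, 0.27 and -0.20 in GATA3 knockdown and 0.18, -0.11, -0.07 and -0.23 in HIF-1α knockdown, and no probe of these genes passed against si-Control. The other LAMA4 probes, above background on all 9 arrays, gave 0.36, -0.30 and -0.28 in GATA3 knockdown and 0.21, -0.29 and 0.49 in HIF-1α knockdown. The second LAMB2 probe was lower in GATA3 than in HIF-1α knockdown, with a difference of -0.55 ± 0.21 that passed the unadjusted threshold, where the probe that stood for the gene gave 0.03. LAMA1 lacked a value on 3 arrays after non-uniform spots were removed and kept 1 HIF-1α knockdown array, so its difference of -0.17 in GATA3 knockdown rests on 2 against 3 arrays and that of 0.08 in HIF-1α knockdown on 2 against 1.

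LAMA2 and LAMC3 were the laminin chains counted between the knockdowns. LAMA2, the α chain of muscle and nerve basement membranes, was 12.11, 12.27 and 11.08 in si-Control, 13.86, 11.79 and 12.11 in GATA3 knockdown and 11.41, 11.80 and 10.05 in HIF-1α knockdown. The knockdown groups met at 11.79 and 11.80, and the highest and lowest of the 9 values were GATA3 knockdown replicate 1 and HIF-1α knockdown replicate 3. The difference was 1.50 ± 0.61, or 2.83-fold higher in GATA3 knockdown (95% CI 0.14 to 2.86, limma, adjusted P = 0.403), and on the slides it was 2.45, -0.01 and 2.06. Without GATA3 knockdown replicate 1 it was 0.87 and without HIF-1α knockdown replicate 3 it was 0.98, neither past the threshold. LAMC3, a γ chain found outside epithelial basement membranes as well, was 14.70, 14.63 and 13.48 in si-Control, 14.03, 14.50 and 13.64 in GATA3 knockdown and 15.01, 14.85 and 14.88 in HIF-1α knockdown. All HIF-1α knockdown arrays were above all other arrays. The difference between knockdowns was -0.85 ± 0.36, or 1.81-fold lower in GATA3 knockdown (95% CI -1.65 to -0.06, limma, adjusted P = 0.406), and 2 other LAMC3 probes gave -0.31 ± 0.27 and -0.15 ± 0.26. The mean of the 3 probes gave -0.44 and the fit with array brightness -0.39, both short of the threshold, and the result passed in 4 of 9 fits without 1 array, failing without GATA3 knockdown replicate 1 or 3 or any 1 HIF-1α knockdown array.

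**Figure D4:**
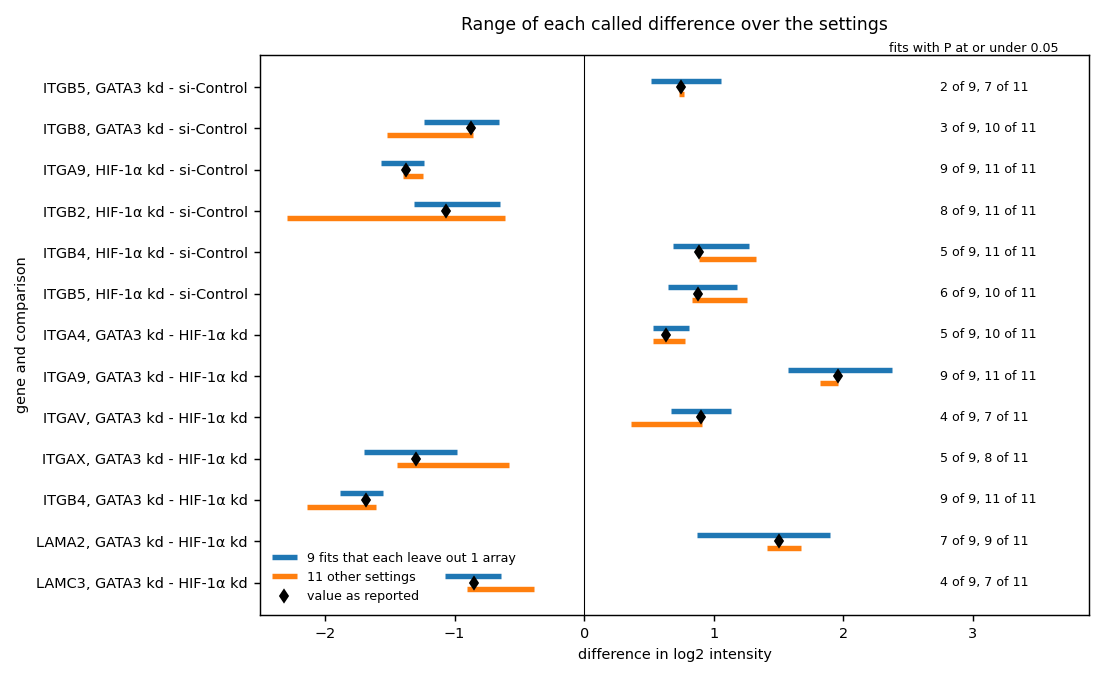
For each of the 13 counted differences, the value as reported (diamond), its range over 9 fits that each left out 1 array (blue) and over 11 other settings (orange), with the number of those fits past an unadjusted P of 0.05 at the right. No range crosses 0, and ITGA9 in 2 comparisons and ITGB4 between the knockdowns passed in all 20 fits.

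Genes that work with integrins and laminins were read from a list of 35 partners: talins, kindlins and focal adhesion proteins, hemidesmosome proteins and tetraspanins, other laminin receptors, basement membrane proteins and other integrin ligands. In GATA3 knockdown 1 of 35 was counted against si-Control, 2.86% of the list where 2.97% of all genes were counted. CD151, a tetraspanin that binds laminin receptors in the membrane, was 16.07, 16.28 and 16.24 in si-Control, 15.44, 15.60 and 15.56 in GATA3 knockdown and 16.37, 16.63 and 16.37 in HIF-1α knockdown. GATA3 knockdown lay apart from both other groups, with a difference of -0.67 ± 0.21 from si-Control (95% CI -1.13 to -0.20, limma, adjusted P = 1.00) and of -0.93 ± 0.21 from HIF-1α knockdown (95% CI -1.39 to -0.46, limma, adjusted P = 0.224). In HIF-1α knockdown 4 of 35 partners were counted, 11.4% of the list where 5.23% of all genes were counted. SDC1, a heparan sulfate proteoglycan that binds laminin, was higher by 1.24 ± 0.35, CD9, another tetraspanin, by 0.97 ± 0.37 and FERMT1, the kindlin of epithelial cells, by 0.74 ± 0.28. FN1, the fibronectin bound by ITGA5 and ITGB1, was lower, with a difference of -0.94 ± 0.29. The adjusted P from limma was 0.792 for SDC1 and 0.823 for CD9, FERMT1 and FN1. SDC1 and FN1 passed in all 9 fits without 1 array and under all 11 other settings. CD9 passed in 7 of the 9, failing without si-Control replicate 2, at 0.70, or HIF-1α knockdown replicate 2, at 0.83. FERMT1 passed in 4 of the 9, failing without si-Control replicate 1 or 3 or any 1 HIF-1α knockdown array, and it was 0.60 with array brightness and 0.23 with the mean of its probes, neither past the threshold. In GATA3 knockdown against si-Control, SDC1 at 0.58 and FN1 at -0.64 were not counted but passed with the slide as a block. FN1 passed with array brightness too. Its GATA3 knockdown arrays, at 16.95, 17.34 and 17.38, lay below its si-Control arrays, at 17.97, 17.99 and 17.63. Between the knockdowns 5 partners were counted, 14.3% of the list where 12% of all genes were counted. CD9 and TLN2, a talin, were lower in GATA3 than in HIF-1α knockdown with differences of -1.16 ± 0.37 and -1.20 ± 0.53, beside CD151. PTK2, the focal adhesion kinase, and PARVA, which binds integrin-linked kinase, were higher by 1.26 ± 0.41 and 1.097 ± 0.43. The adjusted P from limma was 0.357 for CD9, 0.416 for TLN2, 0.362 for PTK2 and 0.394 for PARVA. TLN2 passed in 3 of the 9 fits without 1 array, failing without si-Control replicate 2, GATA3 knockdown replicate 1 or 3 or any 1 HIF-1α knockdown array, and with array brightness it was -0.42 and no longer passed. PARVA passed in 6 of the 9, failing without GATA3 knockdown replicate 1 or 3 or HIF-1α knockdown replicate 1, and with array brightness it was 0.50 and no longer passed. PTK2 passed in 8 of the 9, and with array brightness it was 0.69 and still passed. Of the hemidesmosome partners, PLEC, DST and COL17A1 were not counted in any comparison, and COL17A1 was well above background on 4 arrays. Over the 35 partners the median difference from si-Control was 0.03 for GATA3 knockdown and 0.0019 for HIF-1α knockdown.

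Promoter sequences of the members were read for short motifs of the targeted factors, as a description. RefSeq windows of assembly GRCh38.p14, from 250 bases before to 50 after a transcript start, matched 24 of the 34 genes by symbol with 31 windows, and the genes without one were ITGA3, ITGA7, ITGA9, ITGAL, ITGAX, ITGB2, ITGB3, ITGB4, LAMA1 and LAMC3. ACGTG or GCGTG, the core of the hypoxia response element that HIF-1α binds with its partner, stood on either strand in 13 of 31 windows, 41.9%, where 48.4% of 35116 RefSeq windows of this length held it. AGATAA or AGATAG and also TGATAA or TGATAG, the core bound by GATA factors, were searched on both strands, and at least 1 of them stood in 7 of 31 windows, 22.6%, where 25% of all windows held one. The 250 bases before the start are shown 5′ to 3′ for the counted genes with exactly 1 window, in lower case with GCGTG, or CACGC where it is on the other strand, in capitals. ITGA4 is at chr2:181457136-181457385, ITGB8 at chr7:20330650-20330899 and LAMA2 at chr6:128882888-128883137, all on the + strand.
ITGA4: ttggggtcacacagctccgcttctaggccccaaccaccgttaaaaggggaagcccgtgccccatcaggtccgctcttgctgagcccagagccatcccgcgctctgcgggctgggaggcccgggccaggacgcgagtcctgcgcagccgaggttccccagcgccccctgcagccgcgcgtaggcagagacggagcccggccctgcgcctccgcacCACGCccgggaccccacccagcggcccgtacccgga
ITGB8: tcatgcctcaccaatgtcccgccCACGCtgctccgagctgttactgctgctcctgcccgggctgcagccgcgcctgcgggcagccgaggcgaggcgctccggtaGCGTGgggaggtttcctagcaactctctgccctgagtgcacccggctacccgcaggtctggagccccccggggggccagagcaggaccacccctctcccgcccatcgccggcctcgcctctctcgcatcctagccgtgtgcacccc
LAMA2: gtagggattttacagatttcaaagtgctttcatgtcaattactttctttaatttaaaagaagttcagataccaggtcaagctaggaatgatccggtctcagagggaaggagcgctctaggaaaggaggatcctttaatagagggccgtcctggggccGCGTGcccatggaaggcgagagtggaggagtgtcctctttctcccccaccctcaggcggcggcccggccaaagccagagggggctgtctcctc
GCGTG alone stood in 36.5% of all windows. ITGA4 and LAMA2 each held 1 GCGTG, at bases -36 to -32 on the - strand and -93 to -89 on the + strand from the start, and no GATA core in this window. ITGB8 held 2, at -227 to -223 on the - strand and -146 to -142 on the + strand. Of the 3 ITGB5 windows, 1 held neither motif and 2 held GCGTG, and of the 2 ITGAV windows 1 held GCGTG and 1 held AGATAA.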

How the data were processed

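RNA of 9 OEC-M1 samples was measured on one-colour Agilent arrays lying on 3 slides. For every array the authors deposited spot and background median intensity and processed intensity from Feature Extraction 10.5.1.1, without normalization across arrays. Their deposited log2 table is the processed signal less 1 constant per array for at least 99.8% of values. Here R 4.3.3 and limma 3.58.1 were used: normexp with an offset of 50, non-uniform spots set to missing, control spots left out, quantile normalization, the brightest probe per gene, and lmFit with eBayes on 3 groups. The files hold no mean signal, so the median was used. Accessions were matched to RefSeq symbols for 31104 of 58201 probes, and 27 members had 1 probe. Where no array of a group read a probe well above background, the fold is a bound: the mean of the other group against, on each array, either the probe's signal or the lowest signal called above background, whichever is higher. It leaves out the spread between arrays. The script was tested on simulated data. Values on every array are given for members counted in any comparison and above background in a group, and for 12 epithelial subunits. The members and lists were chosen with earlier results of these data known. Replicate numbers coincide with slides per the file headers. Deviations of same-numbered arrays correlated at 0.22, 0.59 and 0.72 between si-Control and GATA3 knockdown, at 0.61, 0.12 and 0.07 between si-Control and HIF-1α knockdown, and at 0.34, -0.19 and 0.10 between the knockdowns. Those of differently numbered arrays ran from -0.69 to 0.47, from -0.58 to 0.40 and from -0.40 to 0.32 in that order. Deviations from a group mean sum to 0, so these values alone cannot show an effect of the slide. The alternatives were other background corrections, 75th percentile scaling, the log2 table, dim probes removed, all spots retained, probes averaged, a slide block, separate fits, eBayes with trend and robust, adjusted P, each array left out and, added after the data were seen, array brightness. Protein sequences were not analysed here.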

Additional observations from a re-analysis of the deposited data

How the results depend on the processing

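All 13 counted differences of members kept their direction in every fit. The integrin and laminin counts were 2 in GATA3 knockdown, 4 in HIF-1α knockdown and 7 between the knockdowns. With the slide, which is the replicate number, as a block they were 4, 6 and 9, which held all genes counted before. The block counted 4.99%, 8.41% and 18.7% of all genes. The member counts were 0 in each at an adjusted P of 0.05. With array brightness as a covariate they were 10, 10 and 8, where 10.1%, 7.83% and 9.82% of all genes were counted. The GATA3 knockdown count was 1 in a separate fit of 6 arrays and 1 under eBayes with trend and robust, where 1.94% and 2.94% of all genes were counted. Leaving out each array in turn gave 0 to 6, 2 to 5 and 2 to 10 members. Of all genes, those fits counted 1.99% to 12.6%, 2.97% to 10.1% and 5.69% to 20.5%. The highest GATA3 knockdown count, 6, came without si-Control replicate 3, and the lowest, 0, without HIF-1α knockdown replicate 3.

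The partner counts were 1, 4 and 5. The replicate block gave 5, 8 and 8, adjusted P gave 0 in each, and leaving out each array gave 1 to 5, 2 to 9 and 3 to 8. The shares of all genes in these fits are those given above for the members. In GATA3 knockdown the partner count was 2 with non-uniform spots kept, 2 in a separate fit, 2 under eBayes with trend and robust and 8 with array brightness. Those settings counted 2.97%, 1.94%, 2.94% and 10.1% of all genes. In HIF-1α knockdown the partner count was 2 with the log2 table, where 4.9% of all genes were counted.

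Among the 19 members with a value given for every array, the differences that changed sign were ones not counted as reported. In HIF-1α knockdown against si-Control, the processed signal gave 0.023 for ITGAV and -0.14 for LAMC1, the log2 table -0.17 for LAMC1 and the mean of probes -0.089 for LAMA3. In the same comparison, array brightness gave 0.58 for ITGA2, 0.17 for ITGA5, 0.45 for ITGAV, 0.32 for ITGB1, 0.17 for ITGB6, -0.12 for LAMA3 and 0.50 for LAMB3. Between the knockdowns it gave -0.82 for ITGA2, -0.15 for ITGA6, -0.087 for ITGB1, 0.24 for LAMA3 and -0.27 for LAMB3, and LAMA3 was 0.049 with the processed signal, 0.072 with the log2 table and 0.23 with the mean of probes. The cause was not tested.

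Leaving out each array, GATA3 knockdown against si-Control ran from -1.11 to 0.68 for ITGA2, -0.48 to 0.44 for ITGA3, -0.031 to 0.94 for ITGA5, -0.21 to 0.39 for ITGA6, -0.96 to 0.047 for ITGAX, -0.049 to 0.51 for ITGB1, -0.18 to 0.26 for LAMA3 and -0.15 to 0.69 for LAMB3. HIF-1α knockdown ran from -1.59 to 0.20 for ITGA2, -0.91 to 0.079 for ITGA5, -0.13 to 0.19 for ITGA6, -0.42 to 0.28 for ITGAV, -0.36 to 0.21 for ITGB1, -0.14 to 0.31 for LAMA3, -0.49 to 0.37 for LAMB3 and -0.18 to 0.15 for LAMC1. The difference between knockdowns ran from -0.23 to 1.11 for ITGA2, -0.27 to 0.34 for ITGA6, -0.30 to 0.10 for ITGB5 and -0.13 to 0.087 for LAMA3. With 3 arrays a group the precision of all values is limited, and ITGA8, ITGB2 and ITGB8 are also limited by signal near background.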
